A study of Homo sapiens with 6 samples.

Results

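Interferon-induced genes and genes of the response to double-stranded RNA were examined in lung fibroblasts in which TAZ, the transcriptional coactivator encoded by WWTR1, had been silenced. A list of 40 such genes was compiled by role, and all 40 were found among the 23355 gene symbols of the count table. Of these, 38 had enough reads to be tested, among 14053 genes tested in all. The other two, OAS1 and BST2, were counted at 0 to 6 and 2 to 8 reads per library. The cells were HFL-1, an established human fetal lung fibroblast line, so all libraries come from a single genetic background. Cells received a non-targeting control siRNA (siNTC) or either of 2 siRNAs directed at TAZ (siTAZ #1 and siTAZ #2) with Lipofectamine RNAiMAX, and RNA was taken 48 h after transfection. Each of the 3 groups had 2 libraries, which the submitters describe as biological replicates. All 6 libraries thus came from cells exposed to a transfection reagent and an siRNA duplex, and no untransfected cells were analysed here. The data were read counts per gene, given as counts per 10⁶ (CPM) after TMM normalization, which is not corrected for gene length. Changes are therefore read between libraries, gene by gene. Sums over several genes, and the choice of the 10 genes with the most counts, follow read numbers and not transcript abundance.

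Double-stranded RNA in the cytoplasm or in endosomes is bound by sensors such as RIG-I, MDA5, TLR3 and PKR, and the signal from these leads to transcription of type I interferons. Secreted interferon acts back on its receptor, and a complex that contains STAT2 and IRF9 then binds the interferon-stimulated response element (ISRE) in the promoters of many genes, whose products block the entry, translation or replication of viruses. Because an siRNA is itself a short duplex RNA, these genes are commonly inspected in knockdown experiments.

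The ISRE was searched for in the promoters of the listed genes, since it is the sequence through which most of them are known to respond. RefSeq promoters on GRCh38.p14, reaching from 250 bases before the transcription start to 50 bases after it, were at hand for 31 of the 40 genes. The core GAAANNGAAA, on either strand (TTTCNNTTTC on the other), was found in 18 of the 31, or 58.1%, against 996 of 27305 promoters in all, or 3.65%. Stretches of 60 bases follow for 3 genes that changed with at least 1 siRNA and for 2 that did not pass the test with either, with the letters of the core matches in capitals.
GBP1, chr1:89065301-89065360, minus strand: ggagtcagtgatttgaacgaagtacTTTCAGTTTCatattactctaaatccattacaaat
IFI44, chr1:78649729-78649788, plus strand: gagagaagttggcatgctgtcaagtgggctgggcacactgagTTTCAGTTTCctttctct
IFITM3, chr11:320861-320920, minus strand: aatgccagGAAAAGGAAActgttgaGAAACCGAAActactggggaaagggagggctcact
ISG15, chr1:1013365-1013424, plus strand: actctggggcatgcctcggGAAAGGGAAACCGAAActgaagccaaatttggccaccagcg
IFIT1, chr10:89392495-89392554, plus strand: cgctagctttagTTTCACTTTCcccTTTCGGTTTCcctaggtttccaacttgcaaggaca
GBP1 and IFI44 carried a single core match in these windows. IFITM3, ISG15 and IFIT1 carried 2 each, which overlapped in ISG15. No core match was found in the windows of TRIM25, MOV10, SAMHD1 and IRF1, which were the other changed genes with a RefSeq promoter.

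TAZ mRNA was reduced in every siTAZ library. WWTR1 stood at 132 and 131 CPM in siNTC, at 26.4 and 28.4 CPM with siTAZ #1 and at 46.1 and 43.1 CPM with siTAZ #2. The fitted log2 fold change was -2.26 (SE 0.10, FDR = 0.00062) with siTAZ #1 and -1.56 (SE 0.10, FDR = 0.00068) with siTAZ #2, in the edgeR quasi-likelihood test used throughout, with Benjamini-Hochberg adjustment over all genes tested. Libraries held 15648055 to 32078188 counts. In siTAZ #1 replicate 2, genes from RANGAP1 on chromosome 22 to the end of the Y chromosome were nearly missing, with 0.246% of the counts against 3.58% to 3.74% in the other libraries. None of the 40 listed genes lies there, but the 576 such genes tested widened the spread shared by all genes, and results that pass the test without them are given as such. The summed level of 10 fibroblast markers was 23300 to 29000 CPM in the 4 siTAZ libraries and 35000 CPM in both of siNTC. The markers did not move together. With siTAZ #1, 3 rose and 4 fell, where 10.8% and 9.78% of all genes tested did so. With siTAZ #2, 2 rose and 5 fell, where 14.1% and 14.4% did so. DCN, a collagen-binding proteoglycan, fell with both (log2 fold changes -0.66 and -1.59, FDR = 0.010 and 0.00072), and the receptor PDGFRB rose with both (0.39 and 0.54, FDR = 0.020 and 0.0051), genes named after their values were seen. Leukocyte markers, of which 1 of 9 passed the filter on low counts, summed to 38.6 to 80.7 CPM, and the siTAZ #2 libraries had the lowest sums (38.6 and 49.5 CPM). The 1 that passed, CD68, made up most of each sum. It was at 73.8 and 75.1 CPM in siNTC, 75.4 and 68.7 CPM with siTAZ #1 and 37.8 and 48.3 CPM with siTAZ #2. PTPRC and LYZ stayed at or under 0.129 CPM, and FCER1G added 6.28 CPM in siNTC replicate 1. The part of these marker shifts in the results below was not tested. In RNA from bulk cultures, fewer cells of a type and less RNA per cell cannot be told apart.

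A minority of the listed genes changed, and those that did moved in both directions. With siTAZ #1, GBP1, SAMHD1 and IRF1 rose, and TRIM25, MOV10, IFI44, IFITM3 and IFIT2 fell. The 3 that rose are 7.89% of the 38 tested, where 10.8% of all genes tested rose, and the 5 that fell are 13.2%, where 9.78% of all genes fell. With siTAZ #2, IRF1, GBP1, USP18, SAMHD1 and IRF7 rose and MOV10 and TRIM25 fell. These were 13.2% of the listed genes against 14.1% of all genes for those that rose, and 5.26% against 14.4% for those that fell. In either direction, 8 genes (21.1%) changed with siTAZ #1, against a background of 20.6%, and 7 genes (18.4%) with siTAZ #2, against 28.5%. In this fit, the share that changed was thus near the background with siTAZ #1 and below it with siTAZ #2. Whether the shares differ from the background was not tested. The count with siTAZ #2 was 5 with a replicate block, 11 in the fit of 4 libraries and 14 in the exact test. The background shares of those fits are not given here. Without the genes of the nearly missing segment, 37 listed genes were tested and OAS2 was not. USP18 then also rose and PARP9 and TLR3 also fell with siTAZ #1 (4 higher against a background of 15.7%, 7 lower against 14.8%, and 11 in either direction against 30.6%), and OAS3 also fell with siTAZ #2 (5 higher against 19.5%, 3 lower against 19.2%, and 8 in either direction against 38.7%).

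**Figure D1:**
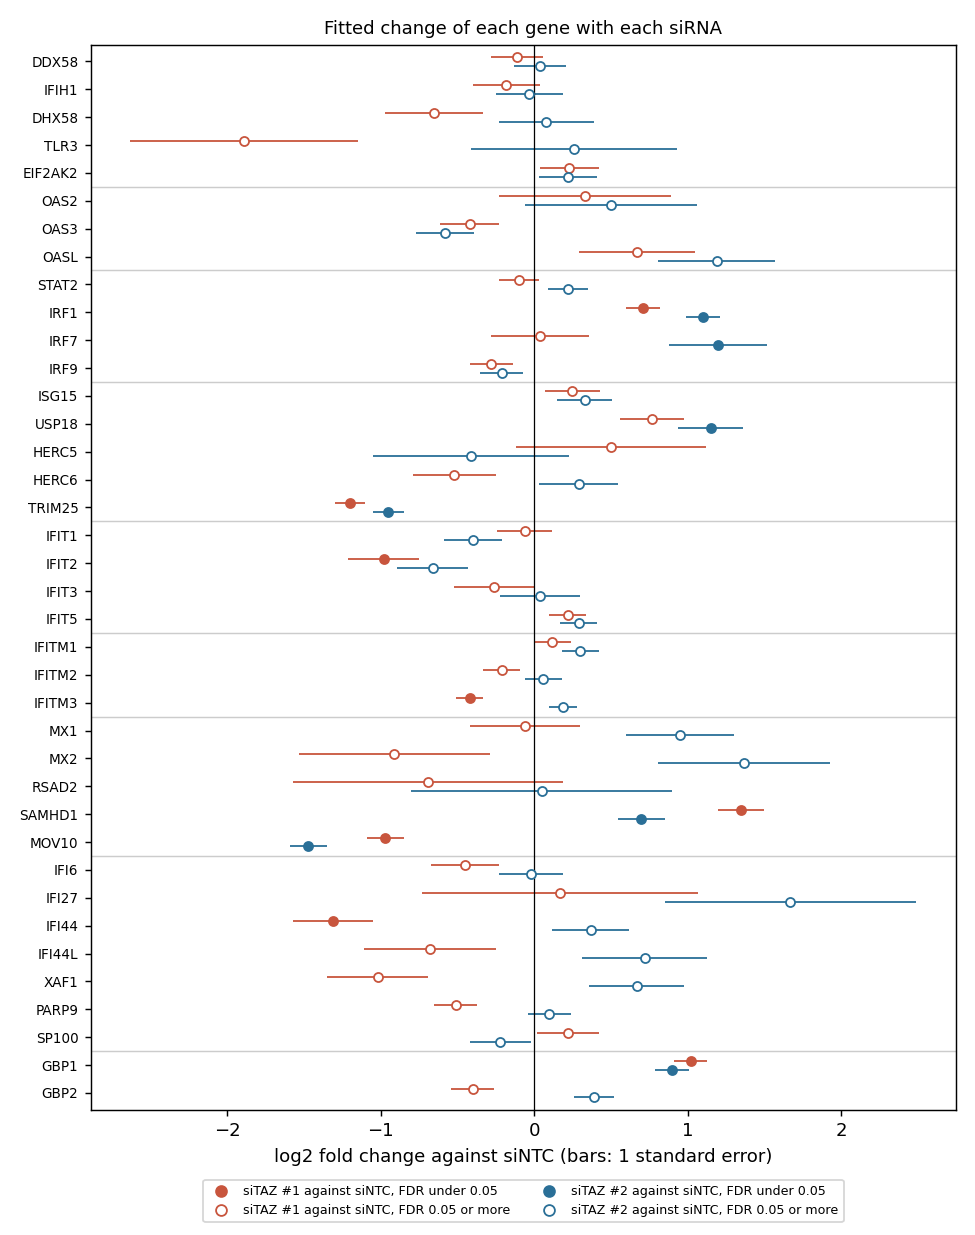
Fitted log2 fold change against siNTC on the horizontal axis for the 38 genes tested, grouped by role on the vertical axis, with siTAZ #1 in red and siTAZ #2 in blue, bars of 1 standard error and filled points for an FDR under 0.05. Filled points lie on both sides of 0, and most points are open.

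On the median, the listed genes lay below siNTC with siTAZ #1 and above it with siTAZ #2. Over the 38 genes tested, the median change on the log2 scale was -0.20 with siTAZ #1, with 14 genes above 0 and 24 below. For siTAZ #2 it was 0.24, with 28 above and 10 below. Over all genes tested, the medians were 0.02 and 0.01. Summed over the 40 genes, the level was 1460 CPM in both siNTC libraries, 1280 and 1270 CPM with siTAZ #1, and 1490 and 1450 CPM with siTAZ #2. This sum rests mostly on a few genes with many counts. With siTAZ #1, mean levels went from 170 to 73.7 CPM for TRIM25, 144 to 73.5 CPM for MOV10 and 268 to 200 CPM for IFITM3. In the other direction, GBP1 went from 38.3 to 77.9 CPM and SAMHD1 from 21.8 to 55.4 CPM. Libraries of siTAZ #1 lay entirely above those of siNTC for 8 listed genes, against 33.2% of all genes tested, and entirely below for 16, against 31.1%. For siTAZ #2 these numbers were 20 above, against 36.0%, and 6 below, against 35.5%. Both comparisons use the same 2 siNTC libraries and are not independent of each other.

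**Figure D2:**
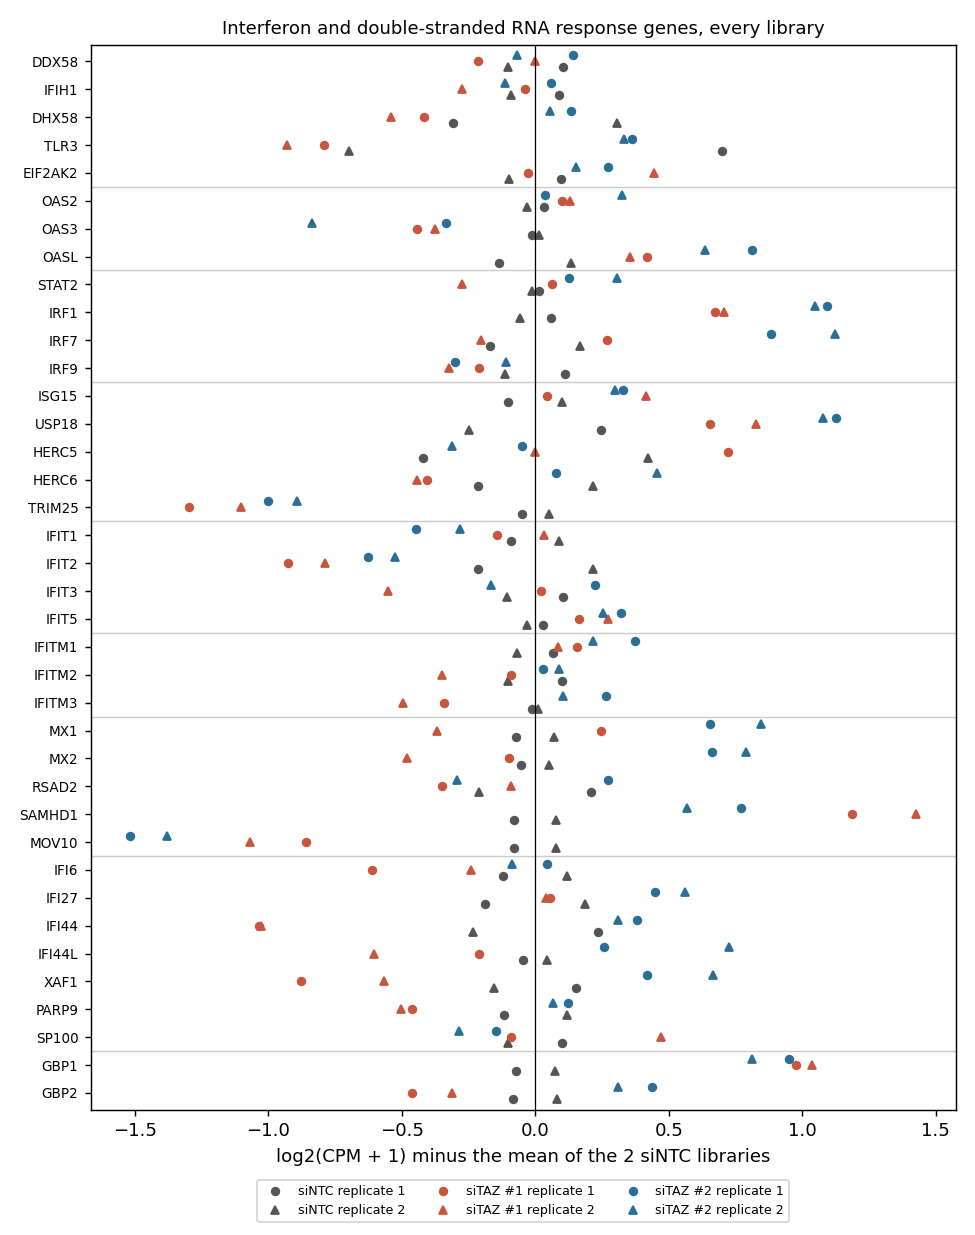
Level of each of the 38 genes tested in each library, as log2(CPM + 1) minus the mean of the 2 siNTC libraries, with siNTC in grey, siTAZ #1 in red, siTAZ #2 in blue, circles for replicate 1 and triangles for replicate 2. TRIM25 and MOV10 lie to the left and SAMHD1, GBP1 and IRF1 to the right in all 4 siTAZ libraries, whereas IFI44, IFITM3, XAF1 and GBP2 lie on opposite sides with the 2 siRNAs.

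The double-stranded RNA sensors were detected in every library and did not pass the test. DDX58, which encodes RIG-I, the sensor of short duplexes with a 5′ triphosphate, was found at 23.9 and 20.6 CPM in siNTC, 19 and 22.2 CPM with siTAZ #1 and 24.6 and 21.1 CPM with siTAZ #2. On the log2 scale DDX58 changed by -0.11 (SE 0.17, FDR = 0.68) with siTAZ #1 and by 0.04 (SE 0.17, FDR = 0.88) with siTAZ #2. The 3 groups overlapped. IFIH1, which encodes MDA5, the sensor of long duplexes, was found at 7.86 and 6.82 CPM in siNTC, 7.10 and 5.89 CPM with siTAZ #1 and 7.67 and 6.70 CPM with siTAZ #2. The respective changes were -0.18 (SE 0.22, FDR = 0.60) and -0.03 (SE 0.22, FDR = 0.94). EIF2AK2, which encodes PKR, the kinase that halts translation once bound to double-stranded RNA, was found at 46.7 and 40.7 CPM in siNTC, 42.8 and 59.7 CPM with siTAZ #1 and 52.9 and 48.6 CPM with siTAZ #2. The changes of this kinase, 0.23 (SE 0.19, FDR = 0.42) and 0.22 (SE 0.19, FDR = 0.43), were about as large as their standard errors. The value with siTAZ #1 rested on replicate 2, without which it was -0.03.

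DHX58, which encodes LGP2, a helicase that modulates the other two RIG-I-like receptors, ranged from 2.82 to 5.87 CPM. A change of -0.65 (SE 0.32, FDR = 0.20) was fitted with siTAZ #1 and of 0.08 (SE 0.31, FDR = 0.89) with siTAZ #2. TLR3, the endosomal sensor, differed most between replicates, with 3.80 and 0.820 CPM in siNTC, 0.710 and 0.552 CPM with siTAZ #1 and 2.80 and 2.72 CPM with siTAZ #2. The siTAZ #1 libraries were the lowest, but siNTC replicate 2 was close to them. Its fitted log2 fold change was -1.89 (SE 0.74, FDR = 0.13) with siTAZ #1 and 0.26 (SE 0.67, FDR = 0.82) with siTAZ #2. The difference between the siRNAs was -2.14 (SE 0.73, FDR = 0.077). Without the genes of the nearly missing segment, TLR3 passed the test for siTAZ #1 against siNTC (FDR = 0.037) and between the siRNAs (FDR = 0.014). In all, 0 of the 5 sensors passed in the edgeR quasi-likelihood test, whereas TLR3 alone had an unadjusted p under 0.05, and TLR3 alone passed in DESeq2, both with siTAZ #1 against siNTC and between the siRNAs.

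The oligoadenylate synthetases make the second messenger that activates RNase L when they bind double-stranded RNA. OAS3, the member that makes the longest of these messengers, was lower in all 4 siTAZ libraries, with 35.8 and 36.5 CPM in siNTC, 26.3 and 27.6 CPM with siTAZ #1 and 28.5 and 19.8 CPM with siTAZ #2. OASL, which has lost synthetase activity and enhances RIG-I signalling, was at 0.824 and 1.20 CPM in siNTC, 1.68 and 1.56 CPM with siTAZ #1 and 2.52 and 2.11 CPM with siTAZ #2. OAS2 stayed between 0.442 and 0.846 CPM. None of these 3 genes passed the quasi-likelihood test with either siRNA. At an unadjusted p under 0.05 there were 0 of 3 with siTAZ #1 and, with siTAZ #2, OASL higher and OAS3 lower, and DESeq2 called OAS3 lower with siTAZ #2.

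Among the transcription factors of the pathway, IRF1 rose with both siRNAs. IRF1 (GRCh37, chr5:131776132-131844411, minus strand) encodes an activator of interferon and antigen presentation genes that is itself induced by interferon-gamma. It was found at 28.8 and 26.5 CPM in siNTC, 44.7 and 45.7 CPM with siTAZ #1 and 60.1 and 58.2 CPM with siTAZ #2. No group overlapped another, and replicates differed by little. The log2 fold change was 0.71 (SE 0.11, FDR = 0.011) with siTAZ #1 and 1.10 (SE 0.11, FDR = 0.0021) with siTAZ #2. The rise with siTAZ #2 passed the threshold in all 16 alternative fits. That with siTAZ #1 did not pass without siNTC replicate 1, without siNTC replicate 2 or in the exact test on 4 libraries. The difference between the siRNAs, -0.39 (SE 0.11, FDR = 0.0497), was at the threshold and was lost in 12 of the 16 alternatives.

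IRF7, the factor that amplifies interferon-alpha transcription, rose with siTAZ #2. The level was 2.79 and 3.79 CPM in siNTC, 4.13 and 2.70 CPM with siTAZ #1 and 6.87 and 8.27 CPM with siTAZ #2. Both siTAZ #2 libraries thus lay above all others. The log2 fold change was 0.04 (SE 0.32, FDR = 0.94) with siTAZ #1 and 1.20 (SE 0.32, FDR = 0.037) with siTAZ #2, and the siRNAs differed by -1.16 (SE 0.31, FDR = 0.039). The rise was lost when either siNTC or either siTAZ #2 library was left out, and with a replicate block. STAT2 and IRF9, which act in the complex that binds the ISRE, did not pass the test. STAT2 was at 171 and 168 CPM in siNTC, 177 and 140 CPM with siTAZ #1 and 185 and 210 CPM with siTAZ #2, with changes of -0.10 (SE 0.13, FDR = 0.64) and 0.22 (SE 0.13, FDR = 0.26). IRF9 ranged from 28.7 to 39.2 CPM.

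ISG15, a ubiquitin-like protein that is conjugated to other proteins, is among the genes most sensitive to interferon, and it did not pass the test. It was found at 16.9 and 19.6 CPM in siNTC, 18.8 and 24.6 CPM with siTAZ #1 and 23.1 and 22.6 CPM with siTAZ #2. The siTAZ #1 libraries overlapped those of siNTC. HERC5 (0.824 to 3.03 CPM), a ligase that attaches ISG15, and the related HERC6 (4.94 to 10.1 CPM) did not pass against siNTC either. USP18, the protease that removes ISG15 and also restrains the interferon receptor, was higher in all 4 siTAZ libraries, with 13.9 and 9.59 CPM in siNTC, 18.8 and 21.3 CPM with siTAZ #1 and 26.4 and 25.5 CPM with siTAZ #2. It rose with siTAZ #2 (log2 fold change 1.15, SE 0.21, FDR = 0.013). With siTAZ #1 the value was 0.77 (SE 0.21, FDR = 0.053), which passed without the genes of the nearly missing segment (FDR = 0.010).

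TRIM25 fell with both siRNAs. TRIM25 (GRCh37, chr17:54913748-54991441, minus strand) encodes a ubiquitin ligase that modifies RIG-I and also attaches ISG15. It was found at 164 and 176 CPM in siNTC, 68.6 and 78.7 CPM with siTAZ #1 and 84.4 and 91.0 CPM with siTAZ #2. The siNTC libraries lay far above all others. The log2 fold change was -1.20 (SE 0.10, FDR = 0.0018) with siTAZ #1, 2.30-fold lower, and -0.95 (SE 0.10, FDR = 0.0023) with siTAZ #2, 1.94-fold lower. Both calls held in all 16 alternatives. Its span overlaps DGKE on the opposite strand, and the strand setting of the counting is not given in the sources used here.

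**Figure D3:**
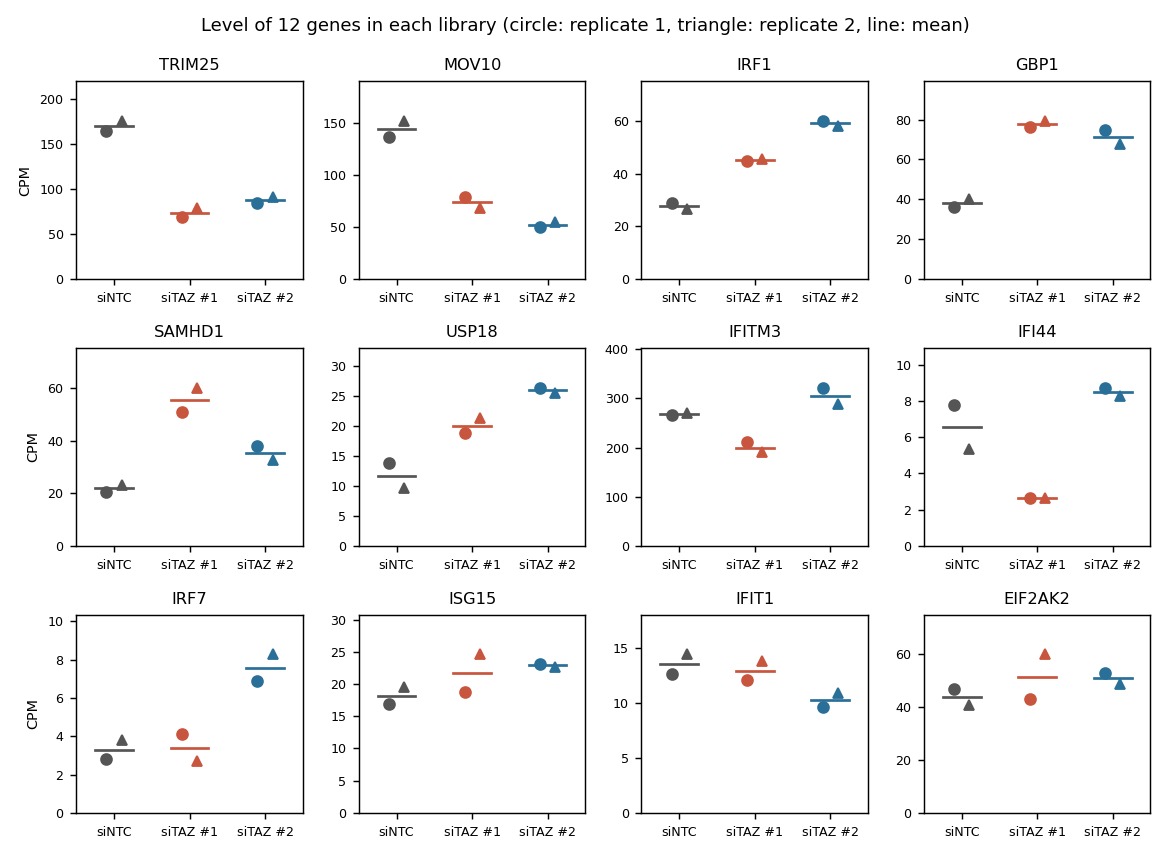
CPM of 12 genes in each library, by group on the horizontal axis, with a line at the mean of each group and vertical axes starting at 0. TRIM25 and MOV10 are lower and IRF1, GBP1 and SAMHD1 higher in every siTAZ library than in siNTC, and IFITM3 and IFI44 are lowest with siTAZ #1. ISG15 (16.9 to 24.6 CPM), IFIT1 (9.63 to 14.4 CPM) and EIF2AK2 (40.7 to 59.7 CPM) did not pass the test against siNTC.

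The IFIT proteins bind viral RNA and keep it from being translated. IFIT1, which recognises RNA caps lacking methylation, was found at 12.6 and 14.4 CPM in siNTC, 12.1 and 13.8 CPM with siTAZ #1 and 9.63 and 10.9 CPM with siTAZ #2. IFIT2, which partners with IFIT1 and IFIT3, was found at 9.83 and 13.6 CPM in siNTC, 5.61 and 6.29 CPM with siTAZ #1 and 7.15 and 7.73 CPM with siTAZ #2. All 4 siTAZ libraries were below siNTC for IFIT2. IFIT2 fell with siTAZ #1 (log2 fold change -0.98, SE 0.23, FDR = 0.035), and with siTAZ #2 its value was -0.66 (SE 0.23, FDR = 0.084). The call was lost in 7 of the 16 alternatives, among them the fits without siNTC replicate 1, siNTC replicate 2, siTAZ #2 replicate 1 and siTAZ #2 replicate 2. IFIT3 (11.7 to 20.7 CPM) and IFIT5 (31.2 to 40.1 CPM) did not pass with either siRNA. Reads of IFIT1, IFIT2 and IFIT3 can be mixed with those of LIPA, which lies across them on the opposite strand.

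The IFITM proteins sit in cell and endosome membranes and hinder the entry of viruses. IFITM3 (GRCh37, chr11:319676-329475, minus strand), the endosomal member, was found at 266 and 270 CPM in siNTC, 211 and 190 CPM with siTAZ #1 and 322 and 288 CPM with siTAZ #2. The siTAZ #1 libraries were below and the siTAZ #2 libraries above those of siNTC. It fell with siTAZ #1 (log2 fold change -0.42, SE 0.09, FDR = 0.030), and with siTAZ #2 the value was 0.19 (SE 0.09, FDR = 0.19). The fall was lost without siNTC replicate 1, without siNTC replicate 2, with a replicate block and in the exact test. IFITM1 and IFITM2, near copies of IFITM3 on chromosome 11, did not pass the test. IFITM1 was at 48.3 and 43.9 CPM in siNTC, 51.5 and 48.9 CPM with siTAZ #1 and 59.9 and 53.6 CPM with siTAZ #2, with changes of 0.12 (SE 0.12, FDR = 0.51) and 0.30 (SE 0.12, FDR = 0.11). IFITM2 was at 145 and 126 CPM, 127 and 106 CPM, and 138 and 144 CPM in the same order of groups, with changes of -0.21 (SE 0.12, FDR = 0.26) and 0.06 (SE 0.12, FDR = 0.77). Because the 3 genes share much of their sequence, how reads were divided between them is uncertain.

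SAMHD1 and MOV10, both of which restrict retroviruses and retrotransposons, moved in opposite directions. SAMHD1 (GRCh37, chr20:35518632-35580296, minus strand), which degrades the nucleotides needed for reverse transcription, was found at 20.5 and 23.0 CPM in siNTC, 50.7 and 60.1 CPM with siTAZ #1 and 37.8 and 32.7 CPM with siTAZ #2. Each siTAZ library was above both of siNTC, and siTAZ #1 was above siTAZ #2. The log2 fold change was 1.35 (SE 0.15, FDR = 0.0039) with siTAZ #1, 2.54-fold higher, and 0.70 (SE 0.15, FDR = 0.021) with siTAZ #2. Without siNTC replicate 1 the rise with siTAZ #1 missed the threshold. That with siTAZ #2 missed it when either siNTC or either siTAZ #2 library was left out, and with a replicate block. MOV10 (GRCh37, chr1:113215763-113243378, plus strand), an RNA helicase that associates with Argonaute proteins, was found at 136 and 152 CPM in siNTC, 78.9 and 68.1 CPM with siTAZ #1 and 49.6 and 54.7 CPM with siTAZ #2. The 3 groups did not overlap, with siTAZ #2 the lowest. Its fitted log2 fold change was -0.97 (SE 0.12, FDR = 0.0048) with siTAZ #1 and -1.47 (SE 0.12, FDR = 0.0011) with siTAZ #2, 2.77-fold lower. The fall with siTAZ #2 held in all 16 alternatives, and that with siTAZ #1 in all but the fit without siNTC replicate 2 (FDR = 0.057).

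The Mx proteins are dynamin-like GTPases that trap viral nucleocapsids. MX1, a widely used readout of type I interferon, was found at 2.60 and 2.97 CPM in siNTC, 3.48 and 1.93 CPM with siTAZ #1 and 4.95 and 5.80 CPM with siTAZ #2. MX2, which acts against HIV-1, was found at 0.634 and 0.757 CPM in siNTC, 0.581 and 0.215 CPM with siTAZ #1 and 1.68 and 1.93 CPM with siTAZ #2. Both Mx genes were highest in the siTAZ #2 libraries, but neither passed the test against siNTC. RSAD2, which encodes viperin, an enzyme that makes a chain-terminating nucleotide, ranged from 0.194 to 0.841 CPM, with the groups overlapping.

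Of IFI6, IFI27, IFI44, IFI44L, XAF1, PARP9 and SP100, IFI44 alone passed the test against siNTC. IFI44 (GRCh37, chr1:79115481-79129763, plus strand) was found at 7.80 and 5.36 CPM in siNTC, 2.65 and 2.67 CPM with siTAZ #1 and 8.74 and 8.27 CPM with siTAZ #2. The siTAZ #1 libraries were well below the other 4. It fell with siTAZ #1 (log2 fold change -1.31, SE 0.26, FDR = 0.020), and its value with siTAZ #2 was 0.37 (SE 0.25, FDR = 0.32). The fall was lost in 5 alternatives, which were the fit of 4 libraries and those without siNTC replicate 1, siNTC replicate 2, siTAZ #2 replicate 1 or siTAZ #2 replicate 2. IFI44L, its neighbour on chromosome 1, was at 1.78 and 1.96 CPM in siNTC, 1.48 and 0.889 CPM with siTAZ #1 and 2.43 and 3.74 CPM with siTAZ #2. XAF1, which counteracts the apoptosis inhibitor XIAP, was at 3.68 and 2.78 CPM, 1.29 and 1.84 CPM, and 4.63 and 5.68 CPM in the same order. For both genes siTAZ #1 was lowest and siTAZ #2 highest, with no overlap between groups.

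PARP9, which acts with the ubiquitin ligase DTX3L, was found at 24.5 and 29.0 CPM in siNTC, 19.1 and 18.5 CPM with siTAZ #1 and 29.1 and 28.0 CPM with siTAZ #2. PARP9 did not pass with siTAZ #1 (FDR = 0.053) but did without the genes of the nearly missing segment (FDR = 0.024), and its span overlaps that of DTX3L. SP100, a component of nuclear bodies, was at 90.3 and 78.3 CPM in siNTC, 78.9 and 117 CPM with siTAZ #1 and 75.9 and 68.9 CPM with siTAZ #2. The siTAZ #1 libraries of SP100 lay far apart, and its changes were 0.22 (SE 0.20, FDR = 0.48) and -0.22 (SE 0.20, FDR = 0.45). Without siTAZ #1 replicate 2 the former was -0.10. IFI6, a mitochondrial survival factor, ranged from 8.52 to 14.8 CPM, and IFI27 from 0.0634 to 0.785 CPM.

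The guanylate-binding proteins are large GTPases that attack vacuoles holding pathogens and are strongly induced by interferon-gamma. GBP1 (GRCh37, chr1:89517565-89531043, minus strand) rose with both siRNAs, from 36.3 and 40.3 CPM in siNTC to 76.3 and 79.5 CPM with siTAZ #1 and 74.9 and 67.9 CPM with siTAZ #2. All 4 siTAZ libraries lay well above siNTC. The log2 fold change was 1.02 (SE 0.11, FDR = 0.0036) with siTAZ #1, 2.03-fold higher, and 0.90 (SE 0.11, FDR = 0.0035) with siTAZ #2, 1.87-fold higher. Both calls held in all 16 alternatives, and the siRNAs differed by 0.12 (SE 0.11, FDR = 0.45). GBP2, by contrast, was at 27.1 and 30.5 CPM in siNTC, 20.6 and 23.0 CPM with siTAZ #1 and 39.3 and 35.9 CPM with siTAZ #2, and did not pass against siNTC with either.

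A total of 5 genes changed with both siRNAs. GBP1, IRF1 and SAMHD1 rose with both (7.89% of the 38, where 5.49% of all genes tested did so), and MOV10 and TRIM25 fell with both (5.26%, where 3.74% did so). Without the genes of the nearly missing segment, USP18 joined the former (8.07% of all genes) and the latter were MOV10 and TRIM25 (6.17% of all genes). MOV10 and TRIM25 are also on the study's own list of genes lowered by both siRNAs, which was drawn from these libraries. Their fall with both is thus not independent of that list. Of the 7 genes with a RefSeq promoter that changed against siNTC with either siRNA, 3 held an ISRE core (GBP1, IFITM3 and IFI44). Of the 22 tested genes with a promoter that did not pass against siNTC with either siRNA, 14 held one, or 63.6%. IFIT2, USP18 and IRF7 also changed against siNTC but had no RefSeq promoter at hand, so these shares leave them out. Sorted by the test between the siRNAs instead, an ISRE core was held by 2 of the 5 genes that were lower with siTAZ #1, 0 of the 2 that were higher, and 15 of the 22 that did not pass. MX2, IRF7 and GBP2, also lower with siTAZ #1, are left out of this sorting for want of a promoter. ISG15 and IFIT1, whose ISRE sequences are printed above, passed in neither sorting. The other genes with 2 or more core matches that passed neither against siNTC nor between the siRNAs were IFIH1, OAS3, HERC5, IFIT3, IFIT5, IFITM1, IFI6, IFI27 and IFI44L.

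The 2 siRNAs were also compared directly, where the siNTC libraries enter only through the shared spread. Of the 38 genes, 10 differed (26.3%, where 28.6% of all genes tested did so). Of these, 8 were lower with siTAZ #1 than with siTAZ #2 (21.1%, where 13.4% of all genes tested were lower) and 2 were higher (5.26%, where 15.2% were higher). The lower genes were IFI44, IFITM3, GBP2, XAF1, PARP9, MX2, IRF7 and IRF1, and the higher genes were SAMHD1 and MOV10. The median difference was -0.32 over the 38 genes, with 30 below 0 and 8 above, and -0.01 over all genes. Libraries of siTAZ #1 lay entirely below those of siTAZ #2 for 22 genes, where 33.0% of all genes did so, and entirely above for 6, where 32.6% did so.

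Among these 10 genes, the largest differences were those of genes with low counts. MX2 differed by -2.28 (SE 0.59, FDR = 0.035), XAF1 by -1.69 (SE 0.32, FDR = 0.013) and IFI44 by -1.68 (SE 0.26, FDR = 0.0067). IFI44 was 3.20-fold lower with siTAZ #1, and it was the only one of the 10 genes whose call held in all 16 alternatives. GBP2 differed by -0.79 (SE 0.14, FDR = 0.0096), IFITM3 by -0.61 (SE 0.09, FDR = 0.0069) and PARP9 by -0.60 (SE 0.14, FDR = 0.025). IFITM3 kept its call in 15 of the 16 alternatives, all but the exact test, and XAF1 in all but the fit without siTAZ #2 replicate 2 (FDR = 0.077). GBP2 lost it without siTAZ #2 replicate 1 and in the exact test. MX2 lost it in 7 of 15 alternatives, IRF7 in 8 of 16 and PARP9 in 4 of 16. In the opposite direction, SAMHD1 differed by 0.65 (SE 0.15, FDR = 0.024) and MOV10 by 0.49 (SE 0.12, FDR = 0.026). Both of these calls were lost when either siNTC or either siTAZ #2 library was left out. They were also lost in the exact test, in the fit of 4 libraries and with a replicate block.

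The number of listed genes that differed between the siRNAs depended on single libraries. The share of all genes that differed with a library left out is not given here, so the shifts cannot be assigned to the listed genes in particular. Without siTAZ #1 replicate 1, 13 listed genes were lower, and without siTAZ #2 replicate 1 or siTAZ #2 replicate 2, 3 were lower. Without the genes of the nearly missing segment, 12 were lower (32.4% of 37, where 18.5% of all genes were lower), with TLR3, HERC6, IFI44L and MX1 added, and 3 were higher (SP100 added, where 19.4% of all genes were higher). TRIM25 (-0.25, SE 0.10, FDR = 0.12), STAT2 (-0.32, SE 0.13, FDR = 0.13), IFITM2 (-0.27, SE 0.12, FDR = 0.15), IFITM1 (-0.18, SE 0.12, FDR = 0.32) and SP100 (0.43, SE 0.20, FDR = 0.16) did not pass between the siRNAs. The remaining sensors had differences of -0.15 (SE 0.17, FDR = 0.55) for DDX58, -0.15 (SE 0.22, FDR = 0.65) for IFIH1, -0.73 (SE 0.31, FDR = 0.14) for DHX58 and 0.01 (SE 0.19, FDR = 0.96) for EIF2AK2.

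**Figure D4:**
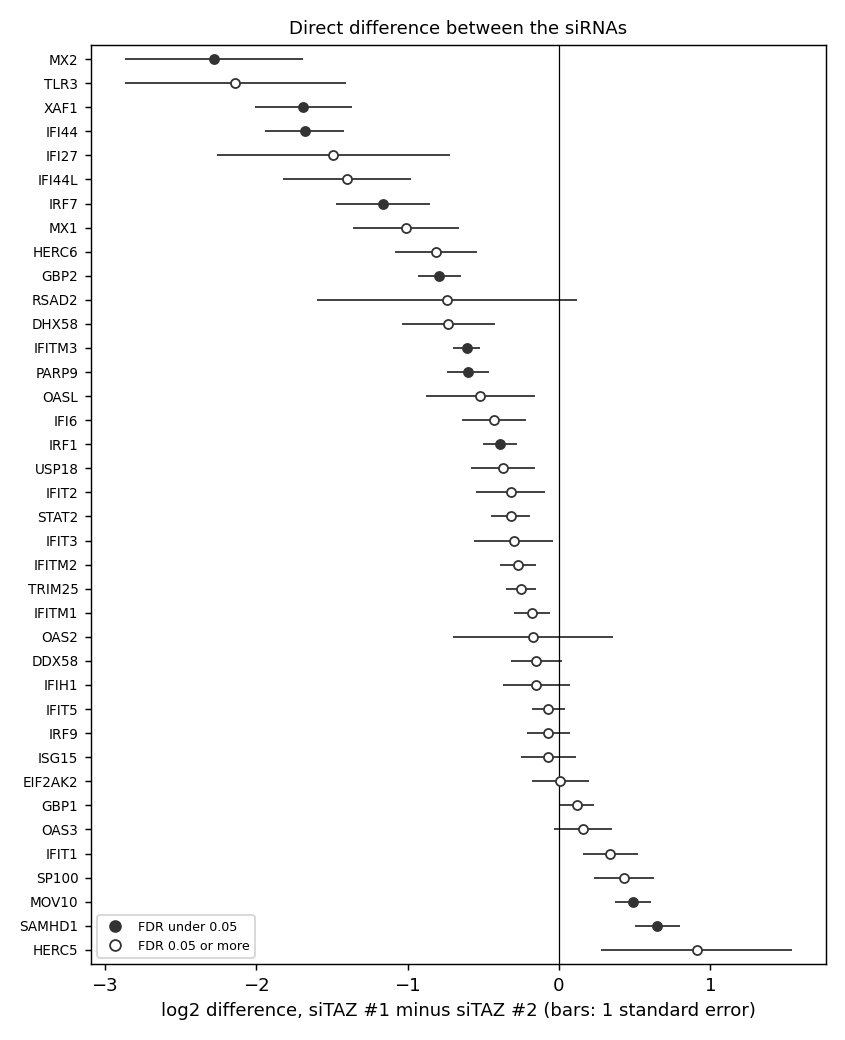
Fitted log2 difference between the siRNAs on the horizontal axis, siTAZ #1 minus siTAZ #2, for the 38 genes tested in order of the difference, with bars of 1 standard error and filled points for an FDR under 0.05. Of the points, 30 lie below 0 and 8 above, and 8 of the filled points are below and 2 above.

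Reads of the interferons themselves were few. IFNB1, the type I interferon that fibroblasts are known to release, had 2 reads over all 6 libraries, both with siTAZ #1, and IFNA1 also had 2. IFNE, an interferon known mainly from the female reproductive tract, had the most, with 9 and 1 reads in siNTC, 3 and 4 reads with siTAZ #1 and 10 and 2 reads with siTAZ #2. IFNG had no read in any library, which allows at most 0.092 to 0.194 CPM per library by counting error alone. Of 14 ligands and receptors, 5 receptor genes were tested. IFNAR2, a chain of the type I interferon receptor, was at 18.6 and 22.2 CPM in siNTC, 22.2 and 19 CPM with siTAZ #1 and 32.6 and 33.1 CPM with siTAZ #2, and it rose with siTAZ #2 (log2 fold change 0.69, SE 0.16, FDR = 0.024). With siTAZ #1, 0 of the 5 passed in the quasi-likelihood test and 0 in DESeq2, and 1 had an unadjusted p under 0.05.

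Of 21 genes that relay the signal from sensors and receptors, 20 were tested. With siTAZ #1, 3 rose and 3 fell, where 10.8% and 9.78% of all genes did so, and with siTAZ #2, 4 rose and 1 fell, where 14.1% and 14.4% did so. The 4 genes with the largest changes, described after TMEM173, were all ones that fell. TMEM173, which encodes the DNA-sensing adaptor STING and was singled out after its values were seen, rose with both siRNAs, from 95.2 and 96.8 CPM in siNTC to 155 and 138 CPM with siTAZ #1 (log2 fold change 0.61, SE 0.09, FDR = 0.0079) and 164 and 172 CPM with siTAZ #2 (0.81, SE 0.09, FDR = 0.0024). STAT3, a factor activated by cytokines of the interleukin 6 family, fell with siTAZ #1 from 342 and 324 CPM in siNTC to 126 and 112 CPM (log2 fold change -1.49, SE 0.10, FDR = 0.00098), and stood at 335 and 372 CPM with siTAZ #2 (0.09, SE 0.10, FDR = 0.56). SOCS3 and TRAF3, a feedback inhibitor of cytokine receptors and an adaptor of the sensors, also fell with siTAZ #1, each by 0.84 on the log2 scale (SE 0.10, FDR = 0.0041 and 0.0051). With siTAZ #2 the values were 0.21 (SE 0.10, FDR = 0.15) for SOCS3 and 0.28 (SE 0.10, FDR = 0.097) for TRAF3. SOCS1, the feedback inhibitor of interferon receptors, fell with siTAZ #2 from 26.1 and 35.0 CPM in siNTC to 10.9 and 7.37 CPM (log2 fold change -1.74, SE 0.26, FDR = 0.0064), and was at 14.8 and 17.2 CPM with siTAZ #1 (-0.93, SE 0.25, FDR = 0.051).

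A further 40 interferon-induced genes outside the list were also examined. Of the 35 tested, 9 fell and 1 rose with siTAZ #1, where 9.78% and 10.8% of all genes did so. With siTAZ #2, 6 fell and 7 rose, where 14.4% and 14.1% of all genes did so. The median log2 fold changes were -0.54 and 0.02. Without the genes of the nearly missing segment, 18 fell with siTAZ #1, where 14.8% of all genes fell. GBP3, a relative of GBP1, fell with siTAZ #1 from 89.4 and 80.3 CPM in siNTC to 18.1 and 27.2 CPM (log2 fold change -1.90, SE 0.20, FDR = 0.0034), and was at 89.6 and 85.4 CPM with siTAZ #2 (0.04, SE 0.20, FDR = 0.90). CXCL10, a chemokine induced by interferon, was counted at 3 and 5 reads in siNTC, 32 and 66 reads with siTAZ #1 and 3 and 2 reads with siTAZ #2. It rose with siTAZ #1 (log2 fold change 2.98, SE 0.52, FDR = 0.014), and with siTAZ #2 the value was -0.91 (SE 0.66, FDR = 0.38). TRIM22, an antiviral ubiquitin ligase, rose with siTAZ #2 from 39.0 and 36.2 CPM to 110 and 102 CPM (1.49, SE 0.10, FDR = 0.00078), and was at 44.6 and 46.5 CPM with siTAZ #1 (0.28, SE 0.10, FDR = 0.11). IFI35 fell with siTAZ #1 (-1.34, SE 0.23, FDR = 0.013), and its value with siTAZ #2 was -0.57 (SE 0.22, FDR = 0.11).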

How the data were processed

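The authors sequenced on an Ion Proton and mapped reads to hg19 with TMAP, and deposited raw counts per gene made with HTSeq 0.6.1. Whether counting used strand is not given in the sources used here. Of 23368 entries, 13 had been turned into dates and were left out (0.0458% to 0.0506% of counts). The counts were tested in edgeR 4.0.16 (R 4.3.3) with TMM factors, the filter on low counts (filterByExpr) and quasi-likelihood tests on all 6 libraries by group, with Benjamini-Hochberg adjustment over 14053 genes and a threshold of 0.05. A fit with 2 libraries per group measures only the spread between these libraries. The study's methods name edgeR without the test. Common dispersion was 0.0807, and 0.0164 without the nearly missing genes. Replicates differed by more than sampling noise. The tests were checked on data simulated with a single spread, smaller than that of the main fit, and without a nearly missing segment. That check does not cover the spread of these libraries. DESeq2 1.42.0 and the other alternatives are reported in the closing section. The genes and lists were chosen by role with earlier results of these data known. Changes were given for genes past the threshold, the 5 sensors, the 10 genes with the most counts, and at most 4 genes of each other list. Gene positions are from GENCODE on GRCh37, promoters from RefSeq on GRCh38.p14.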

Additional observations from a re-analysis of the deposited data

Results flagged for a closer look

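For 10 of the listed genes the effects of the siRNAs differed in the direct edgeR quasi-likelihood test, with values on the log2 scale given as siTAZ #1 minus siTAZ #2. In 5 of them, both libraries of siTAZ #1 lay below siNTC and both of siTAZ #2 above it. These were MX2 (-2.28), XAF1 (-1.69), IFI44 (-1.68), GBP2 (-0.79) and IFITM3 (-0.61). The other 5 were IRF7 (-1.16), PARP9 (-0.60), IRF1 (-0.39), SAMHD1 (0.65) and MOV10 (0.49). All 10 were picked for a difference between the siRNAs, which favours opposite sides of siNTC. The share of all genes on opposite sides is not given here, so the pattern cannot be assigned to the listed genes in particular.

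WWTR1 itself differed by -0.70. Of the named genes of the other lists, 4 had the libraries of the siRNAs on opposite sides of siNTC, namely CXCL10 (3.90), TNRC6C (1.32), SOCS3 (-1.06) and TRAF3 (-1.12). For these, too, the share of all genes on opposite sides is not given. The remaining differences were -1.94 for GBP3, -1.57 for STAT3, -1.21 for TRIM22, -0.86 for PSMB9, -0.68 for IFNAR2 and for TAPBP, -0.42 for HLA-E and -0.31 for ERAP1, and 0.72 for TNRC6A, 0.70 for EIF2C3 and 0.57 for EIF2C2.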

How the results depend on the processing

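Counts of changed genes were small and moved with the setting. The share of all genes called in each of these fits, or with the replicate blocks below, is not given here. The shifts can therefore not be assigned to the listed genes in particular. Without the nearly missing genes, the share of all genes that differed between the siRNAs went from 28.6% to 38.0%. For siTAZ #1 against siNTC, 8 genes changed (3 higher, 5 lower), 5 in the exact test on 4 libraries (3 lower), 3 lower in the fit of 4 libraries, and 8 lower at an FDR of 0.1. Leaving out each library in turn gave 3 to 13 in all, 1 to 6 higher and 2 to 7 lower. For siTAZ #2 against siNTC, 7 changed (5 higher, 2 lower), 14 in the exact test (10 higher, 4 lower), 11 in the fit of 4 libraries (4 lower) and 12 at an FDR of 0.1 (8 higher, 4 lower). Leaving out each library gave 4 to 11 in all, 2 to 7 higher and 2 to 4 lower. Between the siRNAs, 10 differed (2 higher, 8 lower), 4 in the exact test (0 higher, 4 lower) and 6 in the fit of 4 libraries (0 higher). Leaving out each library gave 3 to 16 in all, 0 to 3 higher and 3 to 13 lower. The lowest counts came without siNTC replicate 1 (3 in all for siTAZ #1), without siNTC replicate 2 or siTAZ #2 replicate 2 (4 for siTAZ #2) and without either siTAZ #2 library (3 between the siRNAs). The highest came without siTAZ #1 replicate 1 (13, 11 and 16), and for siTAZ #2 also without siTAZ #1 replicate 2 (11). Where a library was left out, the lone one of its group was assumed to vary like the others. The cause was not tested.

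Libraries with the same replicate number did not deviate together (correlations of -0.00, 0.01 and -0.27 over 13477 genes), so the numbers are not taken to pair them. With a replicate block, 3 genes were lower with siTAZ #1, 3 were higher with siTAZ #2, and 4 differed between the siRNAs (0 higher, 4 lower). With the numbers of siTAZ #2 crossed, a fit chosen after seeing the data, 7 differed between the siRNAs (5 lower).

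Without the nearly missing genes, the further interferon-induced genes that fell with siTAZ #1 went from 9 to 18, the small RNA machinery genes from 1 to 2 and the MHC class I genes from 2 to 4. With siTAZ #2, receptors that rose went from 1 to 3 and that fell from 0 to 1, and MHC class I genes that fell from 0 to 3. The shares over all genes tested grew as well. Those that fell with siTAZ #1 went from 9.78% to 14.8%. With siTAZ #2, those that rose went from 14.1% to 19.5% and those that fell from 14.4% to 19.2%. WWTR1 differed between the siRNAs by -0.70 (FDR = 0.005), but not past the threshold in the exact test (-0.70, FDR = 0.24).

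Genes whose value was near 0 changed sign in some fits. EIF2AK2 between the siRNAs was -0.02 with upper-quartile factors, -0.00 without the nearly missing genes, and from -0.24 to 0.24 with a library left out. IFIH1 with siTAZ #2 was 0.01 with library totals. With a library left out, siTAZ #1 values ranged from -0.03 to 0.45 for EIF2AK2, -0.10 to 0.47 for SP100 and -0.27 to 0.06 for STAT2, with the sign changed without siTAZ #1 replicate 2. Those of siTAZ #2 ranged from -0.15 to 0.06 for IFIH1, -0.08 to 0.13 for DDX58, -0.27 to 0.48 for DHX58, -0.06 to 0.14 for IFITM2 and -0.48 to 1.72 for TLR3. Of the other values of single genes, 759 kept their direction and side of the threshold, 81 fell short of it and 20 came to pass it. With another scaling, the median of all genes stayed between -0.05 and 0.06. Depth limited TLR3, OAS2, OASL, HERC5, MX2, RSAD2 and IFI27, each with under 20 reads in at least 1 library.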

Other observations

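Small RNA and double-stranded RNA binding proteins, through which siRNAs act, also varied between the groups. Of 19 genes tested, 3 rose and 1 fell with siTAZ #1 and 2 rose and 6 fell with siTAZ #2, where 10.8%, 9.78%, 14.1% and 14.4% of all genes tested did so. EIF2C2, the Argonaute protein AGO2 that cleaves siRNA targets, rose with both siRNAs, from 39.7 and 31.6 CPM in siNTC to 73.8 and 76.3 CPM with siTAZ #1 (log2 fold change 1.07, SE 0.14, FDR = 0.0058) and 51.6 and 49.8 CPM with siTAZ #2 (0.51, SE 0.14, FDR = 0.042). TNRC6C, a partner of Argonaute proteins in silencing, rose with siTAZ #1 from 23.7 and 21.5 CPM to 51.0 and 50.4 CPM (1.16, SE 0.12, FDR = 0.0033), and was at 19.5 and 21.1 CPM with siTAZ #2 (-0.15, SE 0.12, FDR = 0.39). Its relative TNRC6A and the Argonaute EIF2C3 (AGO3) fell with siTAZ #2 (-0.97, SE 0.11, FDR = 0.0028 and -1.11, SE 0.13, FDR = 0.0032). With siTAZ #1 their values were -0.25 (SE 0.11, FDR = 0.17) and -0.41 (SE 0.13, FDR = 0.079).

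Of 17 genes of MHC class I presentation, 2 fell with siTAZ #1, where 9.78% of all genes tested fell, and 2 rose with siTAZ #2, where 14.1% rose. PSMB9, a subunit of the immunoproteasome, fell with siTAZ #1 from 21.7 and 19.9 CPM in siNTC to 8.26 and 7.12 CPM (log2 fold change -1.44, SE 0.18, FDR = 0.0049), and was at 14.6 and 13.3 CPM with siTAZ #2 (-0.58, SE 0.17, FDR = 0.053). HLA-E, a ligand of natural killer cell receptors, fell with siTAZ #1 (-0.44, SE 0.08, FDR = 0.015). TAPBP, which loads peptides onto class I molecules, rose with siTAZ #2 from 218 and 221 CPM to 325 and 369 CPM (0.66, SE 0.10, FDR = 0.0063), and ERAP1, which trims those peptides, rose by 0.31 (SE 0.08, FDR = 0.040). No gene of the list rose with siTAZ #1 in the quasi-likelihood test, at an unadjusted p under 0.05 or in DESeq2. With siTAZ #2, 0 fell in the quasi-likelihood test, 4 at an unadjusted p under 0.05 and 3 in DESeq2.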
